A study of Mus musculus with 6 samples.

Results

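MHC class I genes were followed in microglia (the macrophages that reside in brain tissue) from amyloid-model mice given an antibody against human LILRB4 or a control antibody. The 10 genes were chosen by name from the 55493 genes of the count table: the classical heavy chains H2-K1 and H2-D1, the non-classical heavy chains H2-Q4, H2-Q6, H2-Q7, H2-T22, H2-T23 and H2-M3, the shared light chain B2m and the activator Nlrc5. All 10 had enough reads to be tested. Every animal was a male of the genotype ILT Telo Tg x 5XFAD, with a human LILR transgene (ILT Telo Tg) on an amyloid model of Alzheimer disease (5XFAD), and was 4 months old when dosing began. One group received the Fc-mutant antibody ZM3.1 against LILRB4, an inhibitory receptor of myeloid cells also called ILT3, and the other the Fc-mutant control antibody 27D6, which the labels name Ctrl IgG2a. Both were given at 60 mg/kg into the peritoneum once a week for 8 weeks. Microglia were sorted as CD45-low CD11b-positive cells, and there were 3 libraries in each group. Both groups carried the transgenes, so effects of the genotype cannot be read from these data, and the H2 haplotype of the mice is not given in the sources used here. The labels do not say that the libraries came from separate animals, and p-values therefore measure only the spread between libraries.

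MHC class I molecules display peptides from inside the cell at its surface, where CD8 T cells and natural killer cells read them. Each molecule is a heavy chain bound to B2m, filled with a peptide in the endoplasmic reticulum. Interferons raise transcription of the heavy chain and B2m genes, and NLRC5 acts on a compact promoter module, in which a kappaB element and an interferon-stimulated response element lie upstream of X and Y elements that bind RFX, CREB/ATF and NF-Y proteins. In the brain, microglia are among the cells known to raise class I genes in inflammation and around amyloid.

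Promoter sequence is shown first because NLRC5 is known to act at class I promoters. In the sequences below (RefSeq promoter windows on GRCm38.p6, 250 bases before to 50 after each gene's start), capitals mark matches, on either strand, to 4 sets of letters. These are GGGATTNCC (kappaB-type), TTTCNNTT (response element type), TGNTGAC (X-type) and ATTGG (Y-type), and no match shares a base with another in the stretches shown. Matches elsewhere in a window are not printed. The letters and spacing were picked from these genes' own promoters, so the matches are a description and nothing more. A match is not evidence of a bound site. The classical genes and the Q genes line up from the kappaB-type to the Y-type match as follows.
H2-K1 (chr17:34000353-34000463, minus strand): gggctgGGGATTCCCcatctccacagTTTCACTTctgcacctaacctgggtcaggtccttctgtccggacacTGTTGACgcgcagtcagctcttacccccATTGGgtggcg
H2-D1 (chr17:35262918-35263028, plus strand): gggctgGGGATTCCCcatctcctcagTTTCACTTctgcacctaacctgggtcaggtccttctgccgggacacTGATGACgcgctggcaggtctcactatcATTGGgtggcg
H2-Q4 (chr17:35379438-35379548, plus strand): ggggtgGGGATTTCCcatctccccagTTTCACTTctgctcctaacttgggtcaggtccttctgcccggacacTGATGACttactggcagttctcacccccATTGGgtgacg
H2-Q6 (chr17:35424672-35424781, plus strand): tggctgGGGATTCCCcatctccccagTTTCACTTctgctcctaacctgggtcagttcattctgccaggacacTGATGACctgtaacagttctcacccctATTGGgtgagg
H2-Q7 (chr17:35439017-35439125, plus strand): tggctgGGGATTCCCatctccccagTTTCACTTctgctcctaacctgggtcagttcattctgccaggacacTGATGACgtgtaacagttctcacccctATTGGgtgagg

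The T and M region genes and B2m lacked the kappaB-type letters in their windows. Matches on the opposite strand read CCAAT for the Y-type and AACTGAAA for the response element type, and the single capital that opens the H2-T22 stretch is the last letter of a Y-type match.
H2-T22 (chr17:36042795-36042939, minus strand): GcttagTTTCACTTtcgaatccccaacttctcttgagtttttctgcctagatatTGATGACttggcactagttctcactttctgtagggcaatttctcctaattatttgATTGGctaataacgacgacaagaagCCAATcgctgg
H2-T23 (chr17:36032743-36032788, minus strand): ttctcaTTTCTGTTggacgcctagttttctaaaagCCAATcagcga
H2-M3 (chr17:37270127-37270223, plus strand): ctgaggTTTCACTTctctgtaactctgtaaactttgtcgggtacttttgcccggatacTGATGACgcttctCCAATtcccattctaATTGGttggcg
B2m (chr2:122147544-122147644, plus strand): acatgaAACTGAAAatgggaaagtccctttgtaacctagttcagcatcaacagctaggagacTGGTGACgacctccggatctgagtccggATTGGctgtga

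Among all 32851 promoter windows of the RefSeq table, the kappaB-type letters were present in 0.938%, the response element type in 23.9%, the X-type in 14.1% and the Y-type in 37.4%. An X-type match followed by a Y-type match on the same strand with 20 or 21 bases between was present in 22 windows (0.067%). H2-K1, H2-D1, H2-Q4, H2-Q6, H2-Q7, H2-M3 and B2m held this pair. H2-T22 and H2-T23 did not, which says only that these letters at this spacing were absent from their windows. That 7 of 9 held it is no test, since these promoters supplied the letters. Nlrc5 had no entry in the promoter table.

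Levels of the 10 genes covered more than 3 orders of magnitude. Levels between genes are given as CPM (read counts put on a shared scale with TMM normalization) per kilobase of exon, using the exon lengths of GENCODE M21 on GRCm38. Each length joins all annotated exons of a gene, in 3 blocks for H2-T23 and H2-Q7, 4 for H2-K1 and 8 for H2-M3. The order between genes therefore depends in part on the annotation. Without division by length, the log2 CPM ratio of H2-T23 to H2-K1 lay between 0.16 and 0.49 over the libraries. B2m was the most abundant, at 2370 ± 206 CPM per kilobase in anti-LILRB4 libraries and 2863 ± 563 in control libraries (SD, n = 3 each). H2-T23 followed at 144 ± 6.89 CPM per kilobase in anti-LILRB4 libraries and 159 ± 22.3 in control libraries. H2-D1 had 129 ± 30.8 in anti-LILRB4 libraries and 114 ± 26.3 in control libraries, and H2-K1 had 108 ± 8.86 in anti-LILRB4 libraries and 126 ± 29.5 in control libraries. Per kilobase, the non-classical H2-T23 was above H2-K1 in all 6 libraries and above H2-D1 in 5 of 6, although the ranges of H2-T23 and H2-D1 over libraries overlapped, as did those of H2-D1 and H2-K1. H2-M3 came next at 71.0 ± 13.8 CPM per kilobase in anti-LILRB4 libraries and 102 ± 26.5 in control libraries, below H2-K1 in each of the 6 libraries although their ranges over libraries overlapped. H2-T22 was at 14.7 ± 2.77 CPM per kilobase in anti-LILRB4 libraries and 14.5 ± 3.09 in control libraries, with a range apart from those of both its neighbours in the order. The Q genes and Nlrc5 were low. H2-Q6 averaged 3.75 CPM per kilobase over the 6 libraries, H2-Q7 1.18, H2-Q4 0.930 and Nlrc5 0.527, and the ranges of neighbours within these 4 overlapped.

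**Figure D1:**
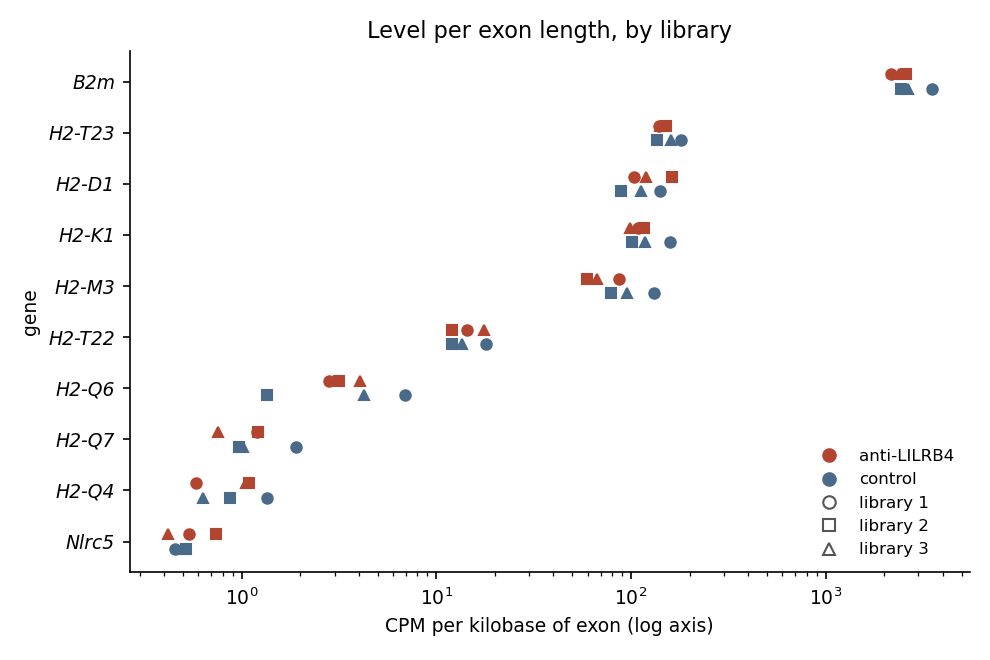
Level of each gene in CPM per kilobase of exon (log axis), 1 point per library, with anti-LILRB4 libraries (red) above control libraries (blue) and marker shapes for libraries 1 to 3. B2m lies above all others, H2-T23, H2-D1, H2-K1 and H2-M3 form a middle band, and the Q genes and Nlrc5 lie at the low end.

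The depth behind these values differed accordingly. B2m had 83894 to 133225 reads per library, H2-K1 11911 to 20680 and H2-M3 3963 to 8315. H2-Q4 had only 68 to 162 reads per library, Nlrc5 146 to 358, H2-Q7 133 to 360 and H2-Q6 113 to 636, so counting error alone reached 12.1% for H2-Q4, 9.41% for H2-Q6 and 8.28% for Nlrc5, against 0.345% for B2m. Total counts per library lay between 39805118 and 56345514. Reads without molecular identifiers are not independent molecules, and these figures cover counting error only.

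The comparison asked whether microglia of mice given anti-LILRB4 differed in class I expression from those of mice given the control antibody. No difference beyond the spread of the libraries was found for any of the 10 genes. By edgeR's quasi-likelihood test with Benjamini-Hochberg adjustment over 18210 genes, 0 of the 10 were called at an adjusted p of 0.05. The background was 0%, as no gene of the table was called (minimum adjusted p 0.385). By the same test, 1 of the 10 reached an unadjusted p under 0.05 and was lower in anti-LILRB4 libraries (H2-M3), and 0 reached it higher, against backgrounds of 3.91% lower and 4.12% higher. DESeq2 called 0.928% of all genes, and limma-voom called 0 genes. Both called 0 of the 10. The groups overlapped for all 10 genes, whereas over all genes anti-LILRB4 libraries lay wholly below control libraries for 7.79% and wholly above for 6.94%. Fitted log2 fold changes (anti-LILRB4 over control) were negative for 7 of the 10 and positive for 3, with a median of -0.19 against -0.01 over all genes tested. In RNA from bulk sorted cells, fewer cells of a type and less RNA per cell cannot be told apart.

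**Figure D2:**
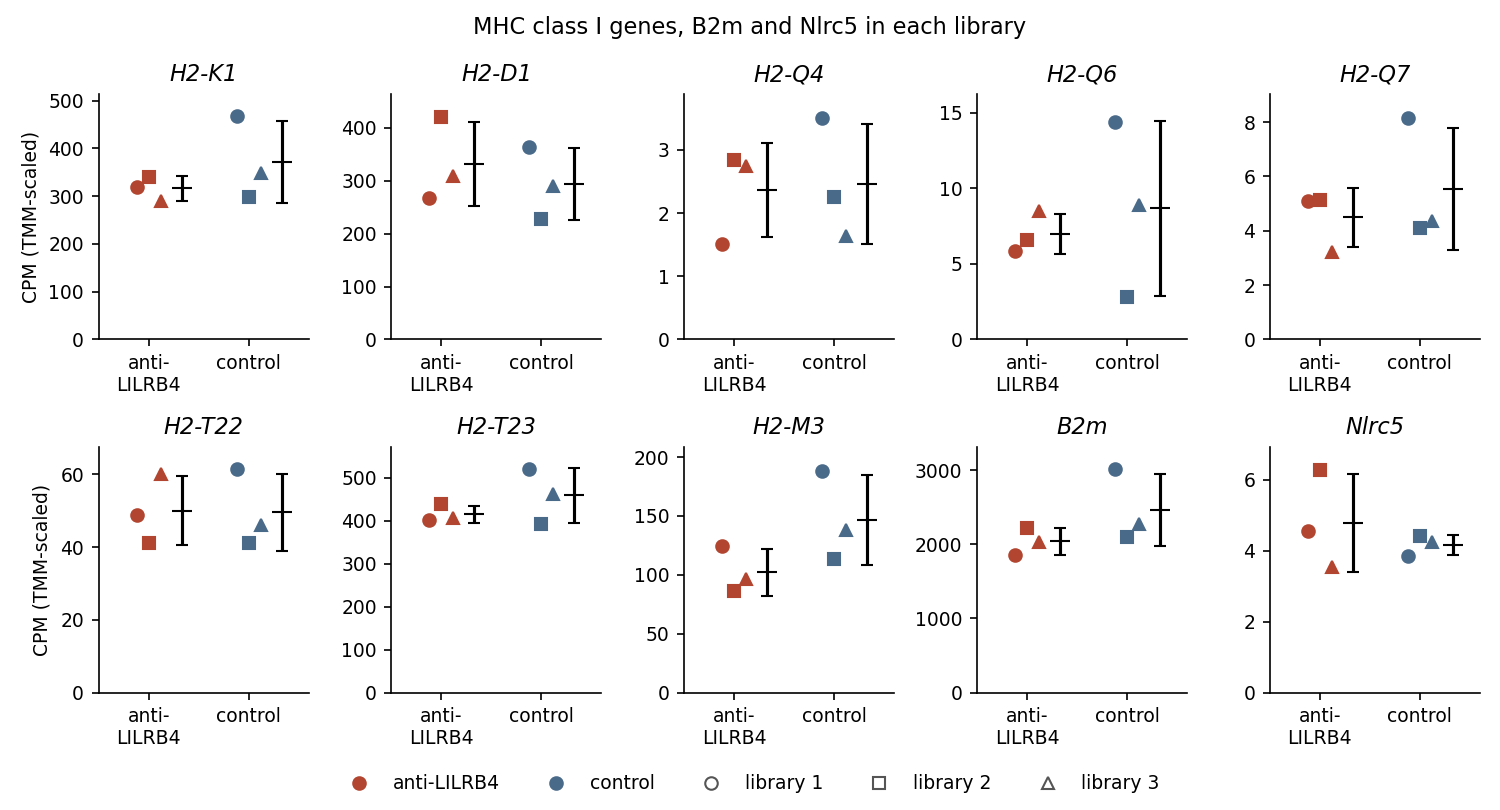
CPM of each gene in every library (linear axes from 0, 1 panel per gene), with anti-LILRB4 libraries (red) left of control libraries (blue), and the group mean with its SD as a black bar (n = 3). The groups overlap in all 10 panels, and control library 1 is the highest point in 8 of them.

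H2-K1, which with H2-D1 presents peptides to CD8 T cells, is encoded on the minus strand at chr17:33996017-34000347. Its level was 319, 341 and 289 CPM in anti-LILRB4 libraries 1, 2 and 3, against 468, 299 and 348 CPM in control libraries 1, 2 and 3. Control library 1 stood above the rest, and the other 5 libraries were mixed between the groups. In edgeR the log2 fold change was -0.23 (SE 0.16) and the adjusted p 0.751; without control library 1 the fold change was -0.031.

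H2-D1 (chr17:35262730-35267499, plus strand) moved the other way on average. It had 267, 421 and 308 CPM in anti-LILRB4 libraries, against 364, 228 and 291 CPM in control libraries. Its highest value was in anti-LILRB4 library 2 and its lowest in control library 2, with all other values in between. Its log2 fold change of 0.18 (SE 0.20, edgeR's adjusted p 0.855) turned to -0.022 without anti-LILRB4 library 2.

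The 3 Q region genes were measured at few CPM. H2-Q6 and H2-Q7, which encode Qa-2 molecules, lie at chr17:35424850-35430055 and chr17:35439155-35443773, and H2-Q4, a further non-classical gene, lies at chr17:35379617-35385290, all on the plus strand. H2-Q6 had 5.87, 6.59 and 8.47 CPM in anti-LILRB4 libraries, against 14.4, 2.80 and 8.85 CPM in control libraries. The control values alone spanned a 5.13-fold range and enclosed all anti-LILRB4 values. H2-Q7 had 5.10, 5.15 and 3.23 CPM in anti-LILRB4 libraries, against 8.14, 4.11 and 4.35 CPM in control libraries, and H2-Q4 had 1.51, 2.84 and 2.74 CPM in anti-LILRB4 libraries, against 3.50, 2.26 and 1.64 CPM in control libraries. Both again peaked in control library 1. Log2 fold changes were -0.32 (SE 0.47) for H2-Q6, -0.30 (0.35) for H2-Q7 and -0.06 (0.41) for H2-Q4, with adjusted p of 0.898, 0.863 and 0.984 by edgeR.

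H2-Q6 and H2-Q7 share sequence, so the split of their reads is uncertain. Of the 50-base stretches in the H2-Q6 transcripts of GENCODE M21, 32.0% also occurred in transcripts of another gene, as did 26.4% for H2-Q7, 21.8% for H2-Q4 and 34.5% for H2-T22, most of the last with H2-T10. The share was 13.6% for H2-T23, 12.8% for H2-D1, 9.63% for H2-K1 and 0.576% for H2-M3, and none for B2m and Nlrc5. At the read length of 150 bases the shares were 5.99% for H2-Q6, 5.90% for H2-Q7 and 1.35% for H2-D1, and at most 0.384% for the other members. With their counts added into 1 row, H2-Q6 and H2-Q7 had 11, 11.7 and 11.7 CPM in anti-LILRB4 libraries, against 22.5, 6.92 and 13.2 CPM in control libraries. The anti-LILRB4 libraries nearly coincided and lay within the wide control range. Summed, the log2 fold change was -0.31 (SE 0.35, edgeR's adjusted p 0.860), and it was 0.19 without control library 1.

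H2-T23 encodes Qa-1, which displays leader peptides of other class I chains to natural killer cell receptors (chr17:36029773-36032855, minus strand). It was the steadiest of the 10 in anti-LILRB4 libraries, at 401, 438 and 407 CPM, against 521, 392 and 462 CPM in control libraries. All anti-LILRB4 values fell between control libraries 2 and 3, and control library 1 stood clear above them. In edgeR the log2 fold change was -0.14 (SE 0.12) with an adjusted p of 0.795.

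H2-T22, whose product is a ligand of certain gamma-delta T cell receptors, is encoded at chr17:36037128-36042747 on the minus strand. It had 49.0, 41.2 and 60.1 CPM in anti-LILRB4 libraries, against 61.5, 41.2 and 46.2 CPM in control libraries. The groups lay over each other, and the log2 fold change was 0.01 (SE 0.19, edgeR's adjusted p 0.994). Its exons overlap those of A930015D03Rik on the opposite strand, those of H2-Q4 overlap Gm11131, and those of Nlrc5 overlap 78 bases of 9330175E14Rik. The kit did not keep the strand, and reads of such pairs cannot be told apart.

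H2-M3, which presents N-formylated peptides of bacterial or mitochondrial origin, had the largest fitted fold change of the 10 (chr17:37270220-37274484, plus strand). It had 124, 85.9 and 96.2 CPM in anti-LILRB4 libraries, against 188, 113 and 138 CPM in control libraries. All but anti-LILRB4 library 1 lay below the lowest control, control library 2. In edgeR the log2 fold change was -0.52 (SE 0.20), the unadjusted p 0.024 and the adjusted p 0.558, and the gene held rank 797 by p. The adjusted p was 0.224 by DESeq2, and the authors' deposited table gives a log2 fold change of -0.52 with an adjusted p of 0.260. Among the alternatives run, its adjusted p passed the threshold only when edgeR was run with no filter on low counts (0.0278). The fold change was -0.30 without control library 1.

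B2m (chr2:122147686-122153083, plus strand), the light chain with which class I heavy chains assemble, had the most reads. It had 1862, 2217 and 2037 CPM in anti-LILRB4 libraries, against 3012, 2101 and 2274 CPM in control libraries. Anti-LILRB4 library 2 lay above control library 2, and control library 1 stood far above the rest. For B2m the log2 fold change was -0.27 (SE 0.13, edgeR's adjusted p 0.640), or -0.10 without control library 1. The authors' deposited table gives -0.27 with an adjusted p of 0.569.

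Nlrc5, the transactivator, spans chr8:94434356-94527272 on the plus strand with 52 exon blocks. It had 4.54, 6.27 and 3.55 CPM in anti-LILRB4 libraries, against 3.84, 4.41 and 4.23 CPM in control libraries. The anti-LILRB4 values enclosed all control values. Nlrc5 had a log2 fold change of 0.20 (SE 0.29, edgeR's adjusted p 0.896), and it was -0.033 without anti-LILRB4 library 2. Control library 1, highest for 8 of the other genes, was the lowest of the control libraries for Nlrc5.

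For most of these genes the spread was wider among control libraries. Control library 1 was the highest of the 6 for 8 of the 10 genes (all but H2-D1 and Nlrc5, which were highest in anti-LILRB4 library 2), whereas it was the highest library for 23% of all genes tested and the lowest for 22.8%. Control library 2 was lowest for H2-D1, H2-Q6, H2-T22 and H2-T23. The coefficient of variation was larger among control than among anti-LILRB4 libraries for the same 8 genes, at 14.1% in control and 4.79% in anti-LILRB4 libraries for H2-T23. It was larger among anti-LILRB4 libraries for H2-D1 and Nlrc5. The control spreads of these 8 genes include the high value of control library 1, and no share over all genes was computed for the coefficient of variation. Without control library 1 the median log2 fold change of the 10 was 0.12, in place of -0.19, and H2-K1 and H2-T23 were at -0.031 and -0.042. Without control library 2 the median was -0.30. The direction of the median thus rested on control library 1.

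**Figure D3:**
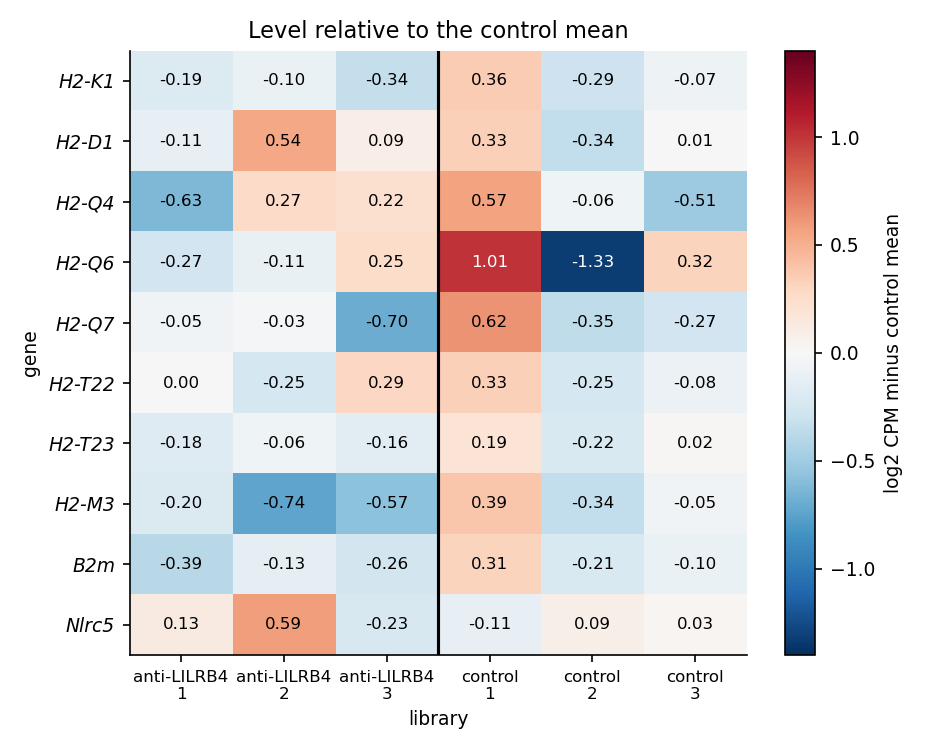
Log2 CPM of each gene (rows) in each library (columns, anti-LILRB4 left of control), as the difference from the mean of the control libraries; red is above and blue below that mean. The column of control library 1 is red for all genes but Nlrc5, and that of control library 2 is blue for all but Nlrc5.

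Markers of other cells differed between libraries. The summed CPM of 10 neutrophil markers was 133, 1129 and 219 in anti-LILRB4 libraries, against 1334, 571 and 611 in control libraries, so the 2 highest sums were in control library 1 and anti-LILRB4 library 2. All 10 neutrophil markers had reads in some library, and 8 had a negative log2 fold change in edgeR (median -0.88). Of the 10, 3 reached an unadjusted p under 0.05 lower, against 3.91% of all genes, and 0 higher. In 3 of the 10 anti-LILRB4 values lay wholly below control values, against 7.79% of all genes. The sum of 8 monocyte markers was 33.2, 69.8 and 27.4 CPM in anti-LILRB4 libraries, against 91.3, 43.7 and 50.5 CPM in control libraries, in the same 2 leading libraries. The 10 T and natural killer cell markers summed to between 0.222 and 1.19 CPM in anti-LILRB4 libraries and between 0.818 and 2.33 CPM in control libraries, with Gzma at 0 in all. Endothelial markers summed to between 11.6 and 22 CPM in anti-LILRB4 libraries and between 7.78 and 19.2 CPM in control libraries. Sums of the B cell, oligodendrocyte and microglia lists lay wholly apart between the groups, and no background was computed for such sums. The 7 B cell markers summed to 663, 744 and 678 CPM in anti-LILRB4 libraries, against 605, 484 and 556 CPM in control libraries. DESeq2 called 1 of these 7 higher (Ighm), against 0.928% of all genes called in either direction. The 6 oligodendrocyte markers summed to 163, 159 and 171 CPM in anti-LILRB4 libraries, against 125, 143 and 130 CPM in control libraries. The part of these cells in the class I values was not tested. The 10 microglia markers summed to 49451, 49805 and 49906 CPM in anti-LILRB4 libraries, against 47348, 49357 and 48732 CPM in control libraries. The lowest anti-LILRB4 sum lay just above the highest control sum. Of these 10, 3 reached an unadjusted p under 0.05 higher in edgeR, against 4.12% of all genes, and 0 lower. In 3 of the 10 anti-LILRB4 values lay wholly above control values, against 6.94% of all genes.

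Within each library, the makeup of the heavy chain pool was set against its size. The 8 heavy chains summed to 1173, 1341 and 1175 CPM in anti-LILRB4 libraries, against 1628, 1083 and 1300 CPM in control libraries, with the anti-LILRB4 values inside the control range. H2-D1 made up 22.8%, 31.4% and 26.2% of that sum in anti-LILRB4 libraries, against 22.3%, 21.1% and 22.4% in control libraries. The groups did not overlap, although anti-LILRB4 library 1 was close to control libraries 1 and 3. Shares of the other heavy chains overlapped between the groups, and no background was computed for such shares. The share of H2-M3 was 10.59%, 6.40% and 8.19% in anti-LILRB4 libraries, against 11.55%, 10.45% and 10.61% in control libraries, and the groups overlapped through anti-LILRB4 library 1. H2-T23 held 33.8% ± 1.04 of the sum in anti-LILRB4 libraries and 34.6% ± 2.27 in control libraries (SD, n = 3 each).

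Most ratios between the abundant genes varied less among control than among anti-LILRB4 libraries. The log2 CPM ratio of H2-D1 to H2-K1 was -0.26, 0.30 and 0.09 in anti-LILRB4 libraries, against -0.36, -0.39 and -0.26 in control libraries; anti-LILRB4 library 1 exceeded control library 3 only in the third decimal. That of H2-T22 to H2-K1 was -2.70, -3.05 and -2.27 in anti-LILRB4 libraries, against -2.93, -2.86 and -2.91 in control libraries, an SD of 0.39 against 0.036. The anti-LILRB4 values lay on both sides of the controls. For H2-M3 over H2-K1 the SD was 0.32 in anti-LILRB4 libraries and 0.046 in control libraries, and for H2-M3 over H2-D1 it was 0.59 in anti-LILRB4 libraries and 0.063 in control libraries. Of the 15 pairs among the 6 most abundant genes, 13 had the larger SD in anti-LILRB4 libraries, and in 4 the groups did not overlap (H2-D1 against H2-K1, H2-M3 and B2m, and H2-T22 against H2-M3). These ratios were chosen after their values were seen, the pairs share genes, and no test was made of them. Ratios of other gene pairs in the table were not computed, so neither count can be set against a background.

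**Figure D4:**
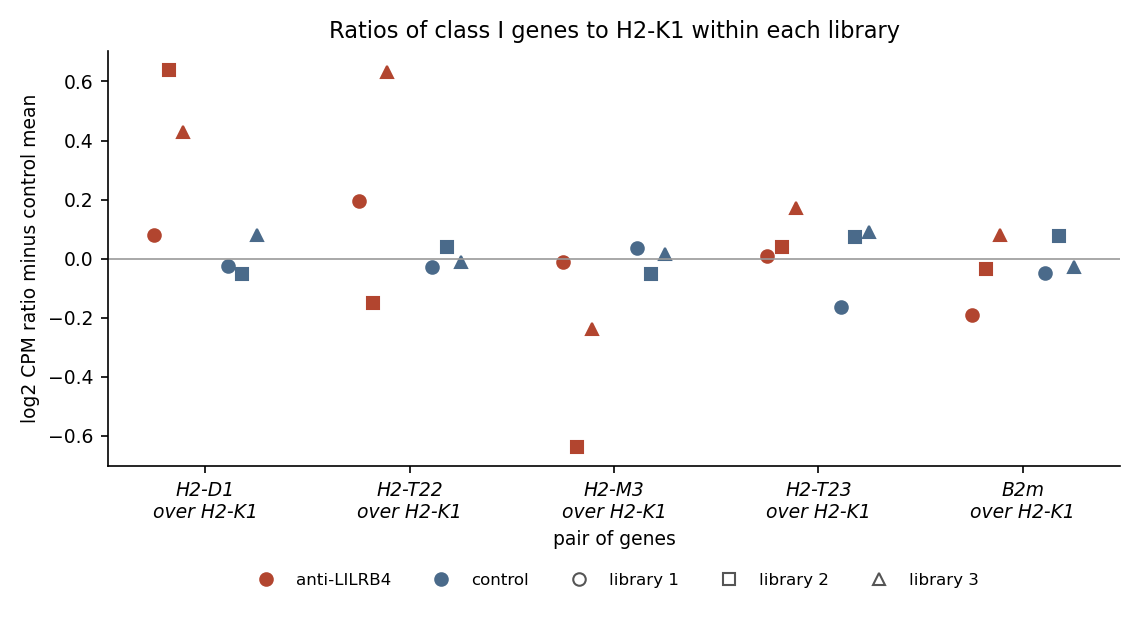
Log2 CPM ratio of 5 class I genes to H2-K1 in each library, as the difference from the mean of the control libraries, with anti-LILRB4 libraries (red) left of control libraries (blue). Control points stay near 0 for H2-D1, H2-T22 and H2-M3, where anti-LILRB4 libraries 2 and 3 depart by up to about 0.6.

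The ratio of light chain to heavy chains differed less than the levels did between libraries. The log2 ratio of B2m to the heavy chain sum, both per kilobase, was 2.25, 2.34 and 2.40 in anti-LILRB4 libraries, against 2.45, 2.54 and 2.38 in control libraries. It averaged 2.33 ± 0.08 in anti-LILRB4 libraries and 2.46 ± 0.08 in control libraries (SD, n = 3 each), and the groups overlapped at control library 3. The size of this ratio depends on the exon lengths used.

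Genes whose levels followed the mean pattern of H2-K1, H2-D1 and B2m most closely over the 6 libraries were sought among 6296 genes with a mean log2 CPM of at least 4. The measure was the root mean square difference of centred log2 CPM. Slc3a2, the heavy subunit of an amino acid transporter, was nearest at 0.044, followed by Vps26c (0.049), Ppp1r8 (0.051), Tapt1 (0.060) and Dctpp1 (0.062). Slc3a2 had 324, 419 and 367 CPM in anti-LILRB4 libraries, against 483, 335 and 389 CPM in control libraries. The choice by likeness fixed that these genes peak where the mean pattern does, in control library 1.

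The remaining H2 class I genes of the table, pseudogenes included, were mostly low or at 0. Of 28 listed, 21 were in the table and 6 had enough reads to be tested, and 5 were at 0 in every library. Of the 6, 5 had a negative and 1 a positive fold change (median -0.20), and 0 passed an unadjusted p of 0.05. H2-K2, with the largest change, had 2.15, 1.61 and 0.534 CPM in anti-LILRB4 libraries, against 3.41, 2.01 and 2.73 CPM in control libraries. Its log2 fold change was -0.92, with an adjusted p of 0.679 by edgeR. H2-T24 had 22.6, 24.9 and 22.7 CPM in anti-LILRB4 libraries, against 15.5, 21.5 and 21.1 CPM in control libraries, wholly above but with an adjusted p of 0.742 by edgeR. H2-Q1 had 0.887, 1.16 and 0.413 CPM in anti-LILRB4 libraries, against 0.950, 0.620 and 0.933 CPM in control libraries.

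Of 7 class I-like genes tested outside the H2 complex, Mr1 lay wholly above and Cd1d1 wholly below, against 6.94% above and 7.79% below over all genes. Mr1, which presents vitamin B metabolites to mucosal-associated T cells, had 15.0, 19.9 and 15.7 CPM in anti-LILRB4 libraries, against 12.9, 12.4 and 11.1 CPM in control libraries. All anti-LILRB4 values lay above all control values. In edgeR its log2 fold change was 0.48 (SE 0.19) and its adjusted p 0.573. Cd1d1, which presents lipids, had 16.7, 17.0 and 19.2 CPM in anti-LILRB4 libraries, against 21.1, 20.3 and 21.8 CPM in control libraries, wholly below (log2 fold change -0.26, adjusted p 0.731 by edgeR). Fcgrt, the neonatal receptor for immunoglobulin G, was the most abundant of the 7 tested at a log2 fold change of 0.17. Of the 7, Mr1 alone had an unadjusted p under 0.05, against 4.12% of all genes higher and 3.91% lower.

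All 13 genes of peptide supply and loading were tested, among them the Tap transporters, immunoproteasome subunits and chaperones. None of the 13 reached an unadjusted p under 0.05 in edgeR, and none was called by DESeq2; the median log2 fold change was -0.04. Tapbpl, a peptide editor, had the smallest p: 40.4, 37.5 and 36.4 CPM in anti-LILRB4 libraries lay below 41.1, 43.2 and 46.3 CPM in control libraries, with a log2 fold change of -0.19 and an adjusted p of 0.750 by edgeR. Psme1, a proteasome activator subunit, was at 0.15, and Pdia3, the most abundant of the list, at 0.06.

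A list of 25 genes covered the class I promoter complex and its interferon and NF-kappaB signals, with activators and repressors mixed. Of the 25, Rfxank and Nfyb reached an unadjusted p under 0.05 in edgeR, the first higher and the second lower (list median 0.09 on the log2 scale). With 1 of 25 in each direction, against 4.12% higher and 3.91% lower over all genes, the share was near the background. In 1 of the 25 anti-LILRB4 values lay wholly above control values and in 3 (Nfyb, Creb1 and Stat2) wholly below, against 6.94% and 7.79% over all genes. Rfxank, a subunit of the RFX complex, had 34.2, 30.2 and 30.6 CPM in anti-LILRB4 libraries, against 20.8, 23.9 and 25.9 CPM in control libraries, wholly above (log2 fold change 0.43, SE 0.15, edgeR's adjusted p 0.525). Nfyb, a subunit of NF-Y, had 36.5, 31.7 and 35.1 CPM in anti-LILRB4 libraries, against 46.0, 39.9 and 41.6 CPM in control libraries, wholly below (log2 fold change -0.30, SE 0.13, edgeR's adjusted p 0.614). Ifngr1, a chain of the interferon gamma receptor and the most abundant of the list, was at -0.12. Of 13 guanylate-binding and Irg genes, which interferon gamma induces, none reached an unadjusted p under 0.05 in edgeR and none was called by DESeq2 (median 0.03). Iigp1 was at -0.99 and Tgtp2 at -1.19 on the log2 scale, from low levels with adjusted p of 0.632 and 0.636 by edgeR, and Irgm2, the most abundant, at 0.03.

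In the class II arm, 2 of 10 genes, Cd74 and H2-Oa, had anti-LILRB4 values wholly above control values, against 6.94% of all genes. Cd74, the invariant chain, had 151, 233 and 244 CPM in anti-LILRB4 libraries, against 116, 96.4 and 119 CPM in control libraries. In edgeR it had a log2 fold change of 0.92 (SE 0.18) and an adjusted p of 0.410, while DESeq2, which called 0.928% of all genes, gave an adjusted p of 0.000458. H2-Oa, which restrains class II peptide loading, had 18.3, 20.9 and 19.8 CPM in anti-LILRB4 libraries, against 14.4, 16.2 and 12.9 CPM in control libraries (log2 fold change 0.44, adjusted p 0.566 by edgeR). The other 8 of the 10 did not pass an unadjusted p of 0.05, and the list's median was 0.04, with H2-DMb1, its most abundant, at -0.11.

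Of 16 listed LILR, Klr and CD8 genes, several of whose products bind class I molecules, 12 were in the table and 7 were tested (median 0.38). Klrd1, which encodes the CD94 chain of the receptors for Qa-1, had 8.49, 5.66 and 12.6 CPM in anti-LILRB4 libraries, against 3.21, 2.68 and 3.62 CPM in control libraries. All anti-LILRB4 values lay above all control values, with a log2 fold change of 1.49 (SE 0.33) and adjusted p of 0.426 by edgeR and 0.00614 by DESeq2. Klrc1, which encodes the NKG2A partner of CD94, had 0, 0.245 and 0 CPM in anti-LILRB4 libraries and was at 0 in all control libraries. The human transgene LILRB4 had 850, 1304 and 3297 CPM in anti-LILRB4 libraries, against 1029, 1031 and 1078 CPM in control libraries. Its log2 fold change of 0.80 (edgeR's adjusted p 0.640) rested on anti-LILRB4 library 3 and was 0.043 without it, although with no filter on low counts its adjusted p was 1.41e-08 by edgeR. The human transgenes LILRB1 and LILRA1 were likewise highest in anti-LILRB4 library 3, at 425 and 546 CPM. In the other libraries LILRB1 lay between 108 and 158 CPM and LILRA1 between 177 and 266 CPM.

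**Figure D5:**
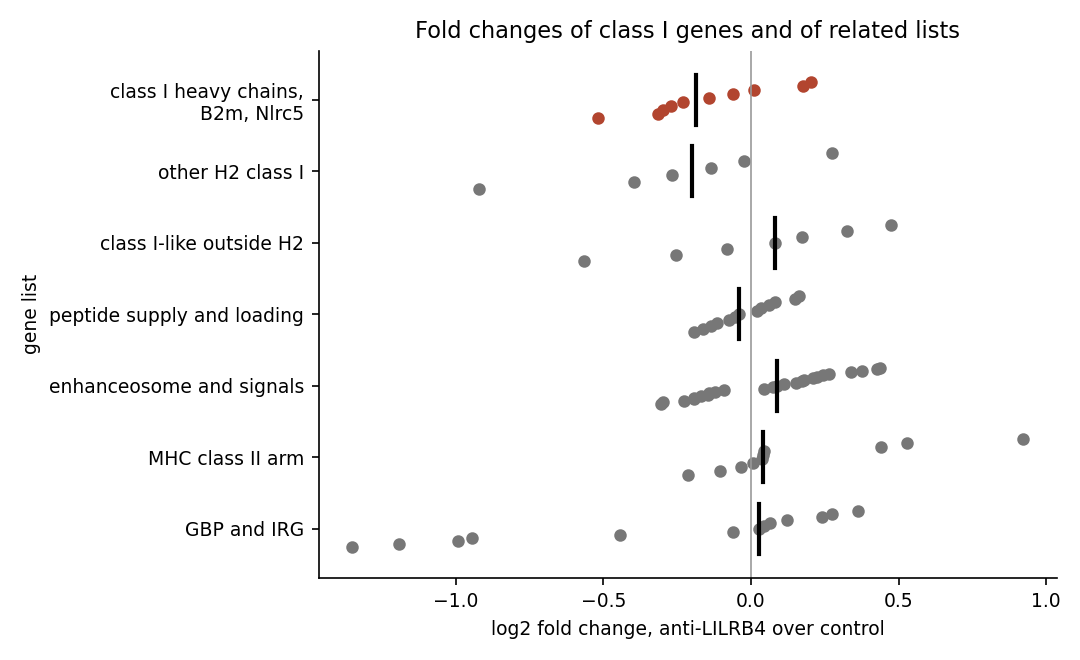
Fitted log2 fold change (anti-LILRB4 over control) of each tested gene, 1 point per gene, for the 10 class I genes (red) and 6 related lists (grey), with a black bar at each list's median. The 10 class I genes lie between -0.52 and 0.20, and the lowest and highest points shown are in the guanylate-binding and class II lists. The list of LILR, Klr and CD8 genes, which includes Klrd1 at 1.49, is not plotted.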

How the data were processed

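RNA of sorted microglia was sequenced as paired reads of 150 bases after cDNA synthesis that keeps no strand, per the labels' protocols. The authors deposited whole-number counts per gene. DESeq2 1.38.3, Salmon, STAR and featureCounts of Subread appear in the submitters' processing notes, which give no roles. Not given in the sources used here are the build, the annotation and how multiply matching reads were counted. The authors' deposited table of their own comparison gives a mean normalized signal, a log2 fold change with its error, a score (fold change over error), a p-value and an adjusted p-value, per the file headers. It was read by gene identifier and matched 8 of the 10 genes.

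From 55780 rows, 287 that repeated an identifier with identical counts were dropped. Genes were filtered with filterByExpr (minimum count 10), scaled by TMM and tested with edgeR 4.0.16 in R 4.3.3 (quasi-likelihood F test, no covariate, Benjamini-Hochberg adjustment over 18210 genes, threshold 0.05). DESeq2 1.42.0 and voom in limma 3.58.1 were alternatives, with other scalings, no filter, an adjusted p of 0.1, a replicate block and each library left out. Standard errors are the fold change over the square root of F. Log2 CPM used a prior count of 2. The tests were first tested on simulated data. Replicate libraries differed by more than sampling noise (chi-square per degree of freedom 22.4 to 61.2). Gene positions, exon lengths (found for 99.52% of genes) and shared transcript stretches are from GENCODE M21 on GRCm38, joined by identifier, and do not bear on the counts. Promoter sequences are from RefSeq and matched 9 of the 10 genes by symbol.

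The 10 genes, the other lists and the markers were chosen with earlier results of these data known. All 10 were named, and from each other list the 2 tested genes with the smallest p and the most abundant per kilobase, skipping predicted genes and pseudogenes. Klrc1, Creb1, Stat2, Ighm, H2-K2, LILRB1 and LILRA1 were named outside that rule after their values were seen. The alternatives reported below do not cover them. Python 3.11.15 with matplotlib 3.10.9 made the figures.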

Additional observations from a re-analysis of the deposited data

How the results depend on the processing

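Of 442 values (34 named genes under 13 alternatives each), 415 kept direction and side of the threshold, 21 changed sign and 6 passed the threshold (Cd74 and Klrd1 with DESeq2, and both with H2-M3 and LILRB4 with no filter). With no filter on low counts, edgeR tested 35404 genes and called 183 higher and 117 lower, and 1 of the 10 class I genes lower (H2-M3, adjusted p 0.0278). DESeq2 called 84 higher and 85 lower. All other alternatives, an adjusted p of 0.1 included, called 0 of the 10. The cause was not tested. Without 1 library at a time, the median log2 fold change of the 10 lay between -0.30 and 0.12, and that of H2-Q6 plus H2-Q7 between -0.63 and 0.19. Both were positive only without control library 1, at 0.12 and 0.19. Among single genes, sign changes without 1 library reached ranges of -0.022 to 0.36 for H2-D1, -0.29 to 0.28 for H2-Q4, -0.73 to 0.26 for H2-Q6, -0.47 to 0.088 for H2-Q7, -0.14 to 0.19 for H2-T22, -0.033 to 0.38 for Nlrc5, -0.35 to 0.29 for H2-Q1, -0.072 to 0.13 for Irgm2, -0.23 to 0.030 for Slc3a2, -0.27 to 0.0016 for Ppp1r8, -0.21 to 0.036 for Tapt1 and -0.25 to 0.065 for Dctpp1. H2-T22 was also -0.019 under upper quartile scaling and -0.0026 with limma-voom, and Irgm2 -0.0022 under that scaling. Libraries of the same replicate number had correlations of 0.152, 0.287 and -0.094, against -0.344 to 0.23 for other pairs across the groups. These values come from deviations centred within each group, which ties them to one another. They do not settle whether the numbers pair the libraries. With a replicate block the median of the 10 was -0.10 and 0 were called. Depth limits the Q genes and Nlrc5, at 68 to 636 reads per library.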
